A study of Mus musculus with 5 samples.

Results

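The 10 genes followed here encode inflammatory chemokines and were traced through the cells of the mouse aortic arch. They are Ccl2, Ccl3, Ccl4, Ccl6, Ccl7, Ccl8, Ccl9, Cxcl1, Cxcl2 and Cxcl16. They were chosen by name as the gene columns of those symbols, 10 of the 26189 gene columns of each deposited table, and none was used to sort the cells into types. The data are from 1 of the 5 samples of the series, a suspension of live CD45+ cells (CD45 marks cells of blood origin) from the aortic arch, read cell by cell on the BD Rhapsody system. The other 4 samples, cultured bone marrow macrophages, were not analysed here. All mice were female, with an age of 12 weeks in the labels, had 1 intraperitoneal injection of an adeno-associated virus (AAV8), and ate a Western diet for 18 weeks. A Western diet is rich in fat and cholesterol. The groups were C57BL/6J wild-type mice and C57BL/6N-Saa3tm1.1(KOMP)Vlcg/MbpMmucd mice (Saa3-/-), which carry a targeted allele of the serum amyloid A3 gene. The design text calls them littermates, although the strain names differ. The cells of each genotype carried 1 sample tag, an antibody-bound barcode, and form 1 pool. The number of mice in a pool is not given in the sources used here.

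Chemokines are small secreted proteins that draw leukocytes along a gradient through G-protein-coupled receptors. In atherosclerosis they bring monocytes through CCR2, other myeloid cells through CCR1, neutrophils through CXCR2 and activated T cells through CXCR6 into the artery wall, where macrophages are a main source of them. CXCL16 is unusual in that it is made as a membrane protein, binds oxidized LDL as a scavenger receptor and is cut free by the proteases ADAM10 and ADAM17.

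All but Cxcl16 lie in gene clusters (GRCm38, GENCODE M21). Ccl2, Ccl7 and Ccl8 span 81229 bases of chromosome 11 (82035571 to 82116799), Ccl9, Ccl6, Ccl3 and Ccl4 span 91765 bases of the same chromosome (83572919 to 83664683), and Cxcl1 and Cxcl2 span 14698 bases of chromosome 5 (90891241 to 90905938). Cxcl16 lies on chromosome 11, 70453983 to 70459984. RefSeq's promoter table (GRCm38.p6) matched 6 of the 10 genes. The entries of Ccl2, Ccl4, Ccl7 and Cxcl16 are missing. The 250 bases before the start are given for Cxcl1 with Cxcl2 and Ccl6 with Ccl9, pairs whose levels went together from cell to cell, and for Ccl8, whose level differed most between the pools. Capitals mark matches to a kB-type motif (the site class of NF-kB, searched as GGGAATTTCC with any base at the fifth position), an AP-1 motif (TGANTCA) and a TATA motif (TATAAA), searched on both strands.

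Cxcl1 (chr5:90890995-90891244, plus strand): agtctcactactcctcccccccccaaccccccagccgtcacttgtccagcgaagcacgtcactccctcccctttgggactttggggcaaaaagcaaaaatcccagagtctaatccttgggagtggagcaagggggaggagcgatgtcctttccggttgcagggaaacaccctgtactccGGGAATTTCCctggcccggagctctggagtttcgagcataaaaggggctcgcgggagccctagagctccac
Cxcl2 (chr5:90903649-90903898, plus strand): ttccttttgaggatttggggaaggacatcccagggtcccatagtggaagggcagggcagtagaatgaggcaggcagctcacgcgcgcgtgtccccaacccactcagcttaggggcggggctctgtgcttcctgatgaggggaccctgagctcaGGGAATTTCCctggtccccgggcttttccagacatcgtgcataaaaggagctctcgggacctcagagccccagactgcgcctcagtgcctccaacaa
Ccl6 (chr11:83593088-83593337, minus strand): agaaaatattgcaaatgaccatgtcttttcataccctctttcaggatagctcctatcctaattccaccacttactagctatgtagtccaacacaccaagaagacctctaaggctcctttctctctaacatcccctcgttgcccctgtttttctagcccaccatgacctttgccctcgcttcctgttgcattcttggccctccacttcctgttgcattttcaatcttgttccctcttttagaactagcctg
Ccl9 (chr11:83578637-83578886, minus strand): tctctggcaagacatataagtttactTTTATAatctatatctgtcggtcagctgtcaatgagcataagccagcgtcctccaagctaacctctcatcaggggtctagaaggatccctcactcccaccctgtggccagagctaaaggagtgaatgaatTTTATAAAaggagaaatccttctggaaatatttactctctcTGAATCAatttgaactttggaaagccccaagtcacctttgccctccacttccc
Ccl8 (chr11:82114935-82115184, plus strand): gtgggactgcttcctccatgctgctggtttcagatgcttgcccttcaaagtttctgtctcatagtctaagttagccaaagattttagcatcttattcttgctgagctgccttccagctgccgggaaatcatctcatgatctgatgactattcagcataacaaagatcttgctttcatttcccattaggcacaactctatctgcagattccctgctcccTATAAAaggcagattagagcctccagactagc

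Cxcl1 and Cxcl2 each held the run GGGAATTTCC, 71 and 97 bases before the start. The kB-type motif was found in 135 of the 32851 promoters of the table (0.411%, windows of 300 bases). Over the 15 pairs of these 6 promoters the longest shared run was the 14 bases in Cxcl1 and Cxcl2 that begin with this match, followed by a run of 13 bases in Ccl6 and Ccl9. Ccl9 held the AP-1 motif at 53 bases (found in 7.81% of promoters; it reads the same on both strands) and the TATA motif at 92, 94 and 224 bases, the first 2 of them overlapping. Ccl8 held the TATA motif at 32 bases, and 13.6% of promoters held it somewhere. Ccl3 and Ccl6 held none of the 3 motifs in this window. A match describes letters only.

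The 2 deposited tables hold 889 cells under the wild-type name and 854 under the Saa3-/- name, and 0 cell barcodes are shared. Removing cells with under 200 genes or over 25% of molecules from mitochondrial genes left 833 and 823 cells, with a median of 6415 and 4698 molecules. The total of Saa3 over all cells goes against its label. The pool labelled wild-type held 1079 molecules of it and the pool labelled Saa3-/- held 1268, of which 1124 were in 2 cells. In macrophages it was 856 against 35, higher in the pool labelled wild-type. Without the 2 highest cells of each pool, Saa3 was at 95.6 and 27.5 molecules per 1000000, also higher in the pool labelled wild-type. Which part of Saa3 is deleted is not given in the sources used here, so these counts do not check the allele. The names below are therefore those of the labels. A level is given in CPM, the molecules of a gene in a set of cells per 1000000 molecules of the same cells. Molecules were counted once each by molecular identifiers. Levels were not scaled by gene length, and they are compared between cells and not between genes. Brackets give exact Poisson or exact binomial 95% intervals. They cover counting error only. With 1 pool per genotype there is no biological replicate, and no test between the pools was made.

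Each cell was put in the class whose marker genes scored highest, with at least 3 of them found (a gate), and 8 classes had at least 20 cells in each pool. The macrophage gate (markers C1qa, C1qb, C1qc, Adgre1 and Csf1r among its 6) held 206 and 145 cells, with 9810 and 6978 molecules in the median cell. All 6 markers were found in both pools, and 4 of the 10 genes with the highest fold over other cells were macrophage markers. Values are given with the pool labelled wild-type first. The fibroblast-marker gate is called by its markers, since 0 of them were among its 10 leading genes by fold over other cells. Those held Col2a1, Col10a1, Col11a1, Cnmd and Ibsp, genes of cartilage and bone. Ptprc, the gene of CD45, was at 830.3 and 771 CPM in the macrophage gate. In the fibroblast-marker gate it was at 138 and 73.4, and in the smooth muscle gate at 109 and 144, although the cells had been sorted for CD45. The macrophage gate also held 19 and 14 cells with markers of a second lineage. No gate was met by 223 cells.

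The macrophage gate was the main holder of these chemokines. It held 34.2% of all molecules in the pool labelled wild-type and 23.8% in the pool labelled Saa3-/-. Over whole pools the summed level of the 10 genes was 3130 and 2171 CPM, and within the macrophage gate it was 6093 and 5833. Of the molecules of the 10 genes over both pools, it held between 45.3% (Cxcl1) and 77.1% (Ccl8). With the monocyte, dendritic and neutrophil gates added, the share was 49.2% for Cxcl1 and between 66.1% (Ccl2) and 81.2% (Ccl4) for the other 9. With both pools together, and among the 8 compared gates, 8 of the 10 genes had their highest level in the macrophage gate. The exceptions were Cxcl1, highest in the fibroblast-marker gate, and Ccl6, highest in the monocyte gate. Gates of too few cells to be compared gave higher values over both pools, the neutrophil gate for Ccl3, Ccl6 and Cxcl2, the NK gate for Ccl4 and the mast gate for Ccl2 and Ccl7.

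**Figure D1:**
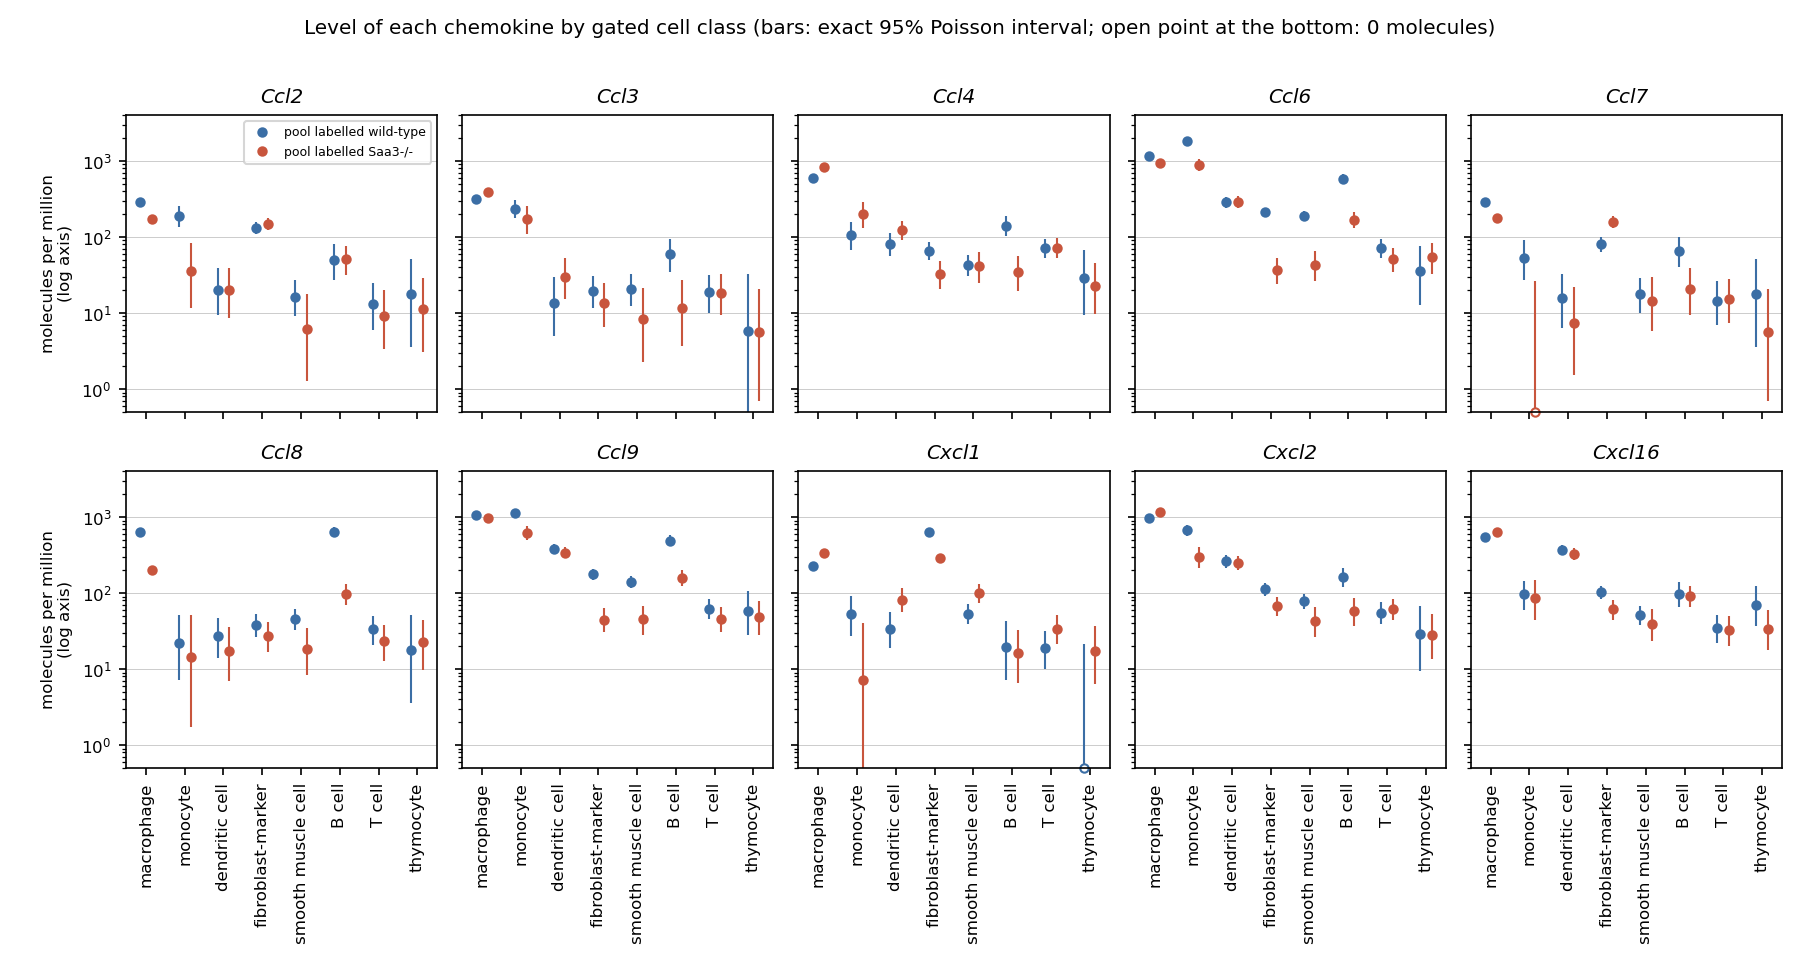
Level of each chemokine (CPM, log axis) in 8 gated cell classes, with 1 point per pool and exact 95% Poisson intervals; open points at the bottom mark a count of 0. The macrophage points are the highest or near the highest of each panel, apart from Cxcl1, where the fibroblast-marker gate reached 635 in the pool labelled wild-type.

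Of the ligands encoded in the Ccl2 cluster, Ccl2 (MCP-1, the main ligand of CCR2) stood in the macrophage gate at 291 [270.3, 313] CPM in the pool labelled wild-type and 172 [149.8, 197] in the pool labelled Saa3-/-. Of the compared gates the fibroblast-marker gate came next with both pools together, at 131 [109, 157] and 149.5 [123, 180.2]. In the pool labelled Saa3-/- the intervals of these 2 gates overlap. There 5 cells held 88.2% of the 110 molecules of the fibroblast-marker gate. Without the cells that also carried markers of a second lineage, the levels in that pool were 176 [152, 203] in the macrophage gate and 93.5 [68.0, 126] in the fibroblast-marker gate, which do not overlap. The mast gate (7 and 6 cells, of which 5 and 2 carried markers of a second lineage) was at 500.1 [354, 686] and 283 [129, 537]. The monocyte gate was at 189 and 35.7, where 1 cell held 26 of the 43 molecules in the pool labelled wild-type. The T gate was at 12.99 and 9.24.

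Ccl7 (MCP-3, also a CCR2 ligand) was also next highest in the fibroblast-marker gate, of the compared gates and with both pools together. It was at 287 and 176 in the macrophage gate, at 80.2 and 159 in the fibroblast-marker gate and at 14.4 and 15.4 in the T gate. In the fibroblast-marker gate of the pool labelled Saa3-/-, 5 cells held 86.3% of its 117 molecules. Without the cells with second-lineage markers (16 of 68) its level there was 29.8 [16.3, 49.9]. The mast gate was at 369 [245, 533] and 126 [34.3, 322]. The monocyte gate held 12 molecules of Ccl7 in 1 pool and 0 in the other, which allows a level of up to 21.4 CPM.

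Ccl8 (MCP-2, known in the mouse as a ligand of CCR8) was at 631 [600.2, 663] and 202 [178, 228] in the macrophage gate. The B gate of the pool labelled wild-type gave 635 [549, 731], the same within counting error. There 1 of 50 cells held 155 of the 194 molecules, and without the 9 cells with markers of a second lineage the level was 22.1. Outside these 2 gates Ccl8 lay between 14.3 and 45.0 CPM, and its neighbours in that order did not differ beyond counting error.

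Ccl3 (MIP-1 alpha) and Ccl4 (MIP-1 beta) draw T cells and myeloid cells, and Ccl3 is a ligand of CCR1. Ccl3 was at 321 and 388 in the macrophage gate and at 237 and 172 in the monocyte gate. No other compared gate passed 58.9. The few neutrophil-gated cells (8 and 16) were at 490.3 and 413. Ccl4 was at 592 and 845 in the macrophage gate, against 105 and 200.2 in the monocyte gate and 72.2 and 72.4 in the T gate. The NK gate (9 and 10 cells) reached 579.8 [406, 803] and 963 [708, 1281], and the neutrophil gate 163 and 699.7.

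Ccl6 (C10) and Ccl9 (MIP-1 gamma) are CCR1 ligands of rodents. Ccl6 was at 1153 [1111, 1196] and 944 [891, 1000] in the macrophage gate, and at 1846 [1674, 2031] and 887 [737, 1057] in the monocyte gate. The monocyte gate was thus higher in the pool labelled wild-type, where 2 of its 31 cells held 127 and 100 of the 421 molecules. In the other pool the 2 gates did not differ beyond counting error. The few neutrophil-gated cells were at 2887 [2364, 3492] and 1050 [812, 1335]. Ccl9 was at 1056 [1016, 1097] and 966 in the macrophage gate, at 1144 [1010, 1292] and 622 in the monocyte gate and at 379.8 and 341 in the dendritic gate. The first 2 of these did not differ beyond counting error in the pool labelled wild-type. In the B gate of that pool Ccl6 was at 586 and Ccl9 at 491, with 118 of 179 and 88 of 150 molecules in 1 cell each, and without cells with second-lineage markers they were at 27.7 and 44.3.

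The neutrophil-drawing ligands differed in the other gates that held them. Cxcl1 (KC) was at 229.7 [211, 249] and 332 [301, 366] in the macrophage gate and at 635 [585, 688] and 287 [249, 328] in the fibroblast-marker gate. The fibroblast-marker gate was higher in the pool labelled wild-type, and in the other pool the intervals overlap. Left without cells that carried markers of a second lineage, the fibroblast-marker gate gave 401 and 293 and the macrophage gate 240.3 and 326. Cxcl2 (MIP-2) was at 986 and 1177 in the macrophage gate, at 671 and 300.3 in the monocyte gate and at 112 and 66.6 in the fibroblast-marker gate. In the few neutrophil-gated cells (8 and 16) Cxcl2 was at 1879 [1462, 2379] and 1924 [1597, 2299], and 14 type 2 innate lymphoid cells of the pool labelled wild-type gave 1028 [792, 1313].

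Cxcl16 was the member shared most evenly by macrophages and dendritic cells. It was at 547 [518, 577] and 631 [588, 677] in the macrophage gate and at 373 [318, 434] and 329 [275, 390.0] in the dendritic gate. All other compared gates lay between 32.4 and 102.

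The share of cells with a molecule was set against that in the T and B gates. Before depth was made equal, Ccl9 was found in 86.3% of macrophage-gated cells and in 19.5% of T-gated cells, whose median depth was lower (4324 and 3910.5 molecules). Every cell was then thinned to 2000 molecules, leaving out 7 macrophage-gated, 8 T-gated and 5 B-gated cells that had fewer. The share of macrophage-gated cells with a molecule was then 68.9% for Ccl9, 62.5% for Ccl6, 60.8% for Cxcl16 and 52.3% for Cxcl2. It was 42.2% for Ccl4, 32.6% for Ccl3 and 25.3% for Ccl2. The lowest were Ccl7 at 21.5%, Ccl8 at 20.1% and Cxcl1 at 18.3%. In the T gate the thinned shares ran from 1.76% (Ccl2, Ccl7) to 11.6% (Ccl4), and in the B gate from 2.03% (Ccl2, Ccl7) to 18.9% (Ccl9). T cells are themselves a known source of Ccl4. For all 10 genes the lower bound of the macrophage share was above the upper bounds of both lymphocyte gates.

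The pools were compared next within the macrophage gate. The summed level of the 10 genes was nearly the same, 6093 and 5833 CPM (log2 ratio -0.06 [-0.10, -0.02], pool labelled Saa3-/- over pool labelled wild-type). Single genes differed in both directions. The 3 ligands of the Ccl2 cluster, Ccl2, Ccl7 and Ccl8, were lower in the pool labelled Saa3-/-, and Ccl3, Ccl4, Cxcl1, Cxcl2 and Cxcl16 were higher by less than 1.5-fold.

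A gene was called when it had at least 50 molecules over both pools and differed by at least 1.5-fold. Of the 10 members 3 were called lower and 0 higher. Of all 7653 genes with as many molecules, 4.9% were called lower and 5.42% higher. The members' median log2 ratio was 0.04, against 0.02 over all genes tested. A call here is a size limit and not a test. With at least 20 molecules required the background was 8.13% lower and 9.61% higher, and with at least 1 it was 5.96% and 42.3%. Counts under 3 were set to 3 in each pool, and the gate held 2494359 and 1243490 molecules. A gene with at most 3 molecules in each pool was thus called higher whatever its counts. The 42.3% includes such genes and does not measure a difference between the pools. The members' counts of 3 and 0 were the same at both limits.

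Ccl8 differed most. It had 1574 molecules, found in 84 of 206 cells, in the pool labelled wild-type. In the pool labelled Saa3-/- it had 251, found in 39 of 145 cells, a 3.13-fold lower level (log2 ratio -1.64 [-1.84, -1.45]). Thinned to 2000 molecules, the share of cells with Ccl8 was 22.8% [17.2, 29.2] and 16.2% [10.6, 23.3], and these overlap. At a 2-fold limit it was the only member called (1.03% of all genes were called lower). It was lower under every alternative setting, with log2 ratios from -2.50 to -1.17. The lowest of these came without the 5 cells of each pool highest in Ccl8. Those held 52.4% of its molecules among 206 cells in the pool labelled wild-type and 73.3% among 145 in the other.

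Ccl2 was 1.69-fold lower (log2 ratio -0.76 [-0.98, -0.54]) and Ccl7 1.63-fold lower (-0.70 [-0.93, -0.48]). Both calls were lost when cells were grouped by Leiden clustering in place of the gates, with -0.25 for Ccl2 and -0.32 for Ccl7, and when each cell weighed the same, with -0.55 and -0.51. With both pools set to the same mix of macrophage sub-gates, Ccl7 was at -0.57, also within the limit. Thinned to 2000 molecules, the share of cells with Ccl2 was 28.2% [22.1, 35.0] in the pool labelled wild-type and 21.1% [14.7, 28.8] in the other, and these overlap. For Ccl7 the shares were 27.2% [21.2, 33.9] and 13.4% [8.25, 20.1], which do not overlap.

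Ccl4 (1.43-fold, log2 ratio 0.51 [0.40, 0.63]) and Cxcl1 (1.45-fold, 0.53 [0.35, 0.72]) came nearest to the limit among the higher members. Both passed it in the Leiden clusters (0.77 and 0.64), with each cell weighing the same (0.67 and 0.70) and with equal sub-gate mix (0.64 in both). Cxcl1 also passed it without its 5 highest cells of each pool (0.66), whereas Ccl4 then stood at 0.27. Cxcl2 was at 0.26 [0.16, 0.35] and passed only in the Leiden clusters (0.63). Ccl3 (0.27), Cxcl16 (0.21), Ccl9 (-0.13) and Ccl6 (-0.29) were within 1.5-fold in every setting.

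Markers of other cell types were also found in the macrophage gate. The summed level of the 6 fibroblast markers there was 914 and 736 CPM, against 27807 and 32446 in the fibroblast-marker gate. The 5 smooth muscle markers summed to 692 and 658. The 12 other marker lists summed to between 16.1 and 315 CPM, and 4 of them had 1 or 2 markers at 0 in at least 1 pool. In the pool labelled wild-type 8 macrophage-gated cells held at least 10 molecules of Saa3, against 0 in the other pool. The part of these in the ratios was not tested.

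The macrophage gate was then split by markers of resident-type macrophages (among them Lyve1, Folr2 and Cd163) and of lipid-laden macrophages (among them Trem2, Gpnmb and Spp1). A cell needed at least 10 molecules per 10000 of the markers of a state, and the larger sum decided. The resident-type sub-gate held 125 and 73 cells and the lipid-laden sub-gate 61 and 56. The resident-type share was 60.7% [53.7, 67.4] of the gate in the pool labelled wild-type and 50.3% [41.9, 58.7] in the pool labelled Saa3-/-. The remaining 20 and 16 cells met neither limit.

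The states differed in the chemokines they held. In both pools Ccl4, Ccl6, Ccl7, Ccl8 and Ccl9 were higher in the resident-type cells and Cxcl16 was higher in the lipid-laden cells. The same 6 genes kept these directions with the sub-gate limit at 5 and at 20. Ccl2, Ccl3, Cxcl1 and Cxcl2 changed direction between the pools. Of these, Cxcl2 differed beyond counting error in both: it was 1.75-fold lower in resident-type cells of the pool labelled wild-type and 2.40-fold higher in those of the pool labelled Saa3-/-.

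Ccl8 was the most uneven. It stood at 1019 [969, 1071] in resident-type and 27.0 [16.7, 41.3] in lipid-laden cells of the pool labelled wild-type, a 37.7-fold difference. In the pool labelled Saa3-/- the levels were 362 and 70.6, a 5.13-fold difference. There 5 of 73 resident-type cells held 178 of the 211 molecules, and 1 lipid-laden cell held 22 of 37. In the pool labelled wild-type 5 of 125 resident-type cells held 825 of 1531. Ccl6 was 2.36-fold and 3.32-fold higher in resident-type cells (1497 against 634, and 1541 against 464), and Ccl9 1.77-fold and 2.34-fold higher. Ccl7 was 2.03-fold and 2.10-fold higher. Cxcl16 ran the other way, at 437 against 697 in the pool labelled wild-type and at 505 against 679 in the other, 1.59-fold and 1.35-fold lower in resident-type cells.

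**Figure D2:**
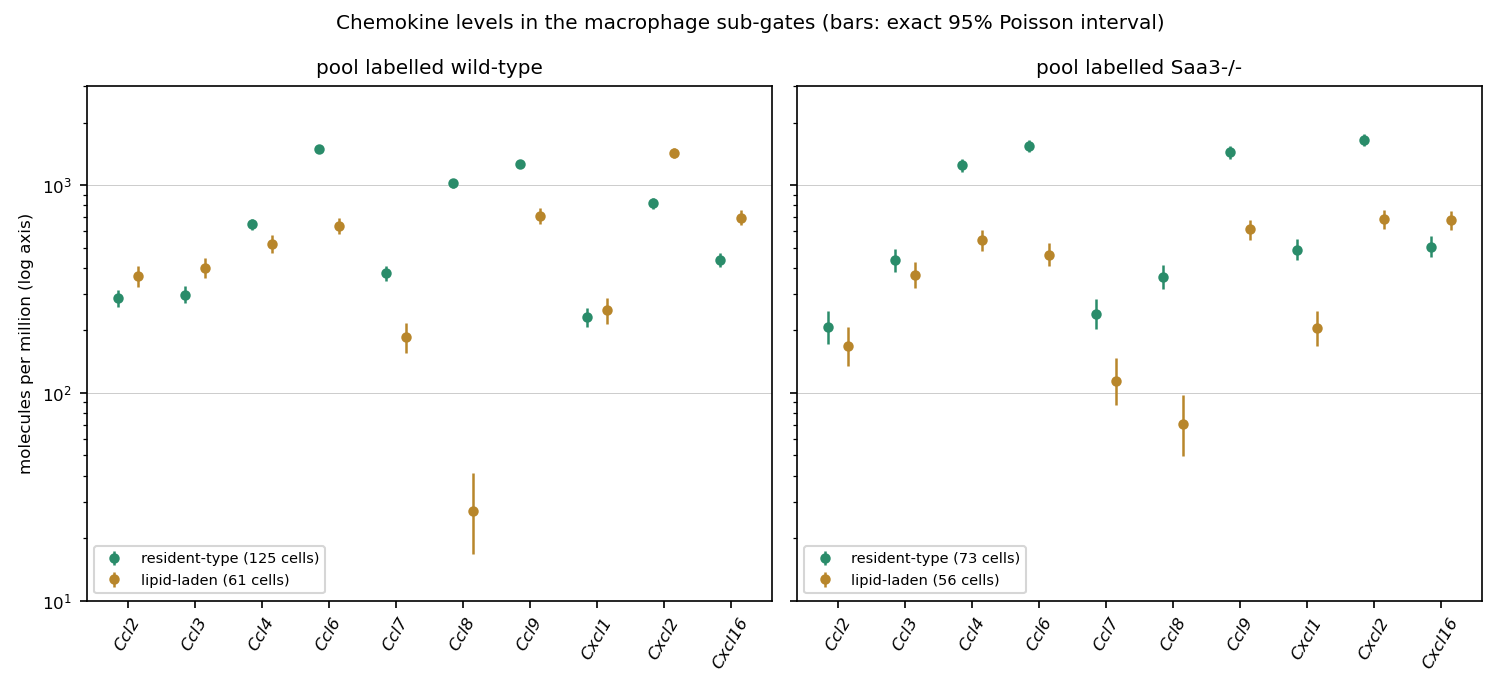
Level of each chemokine (CPM, log axis) in resident-type and lipid-laden macrophage sub-gates, 1 panel per pool, with exact 95% Poisson intervals. Ccl8 is at 1019 and 27.0 in the pool labelled wild-type, and Cxcl16 is the member that is higher in lipid-laden cells in both panels.

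Within the resident-type cells, Ccl4, Cxcl1 and Cxcl2 were higher and Ccl7 and Ccl8 were lower in the pool labelled Saa3-/-. These are 3 of 10 members called higher, where 8.74% of 5757 genes were, and 2 called lower, where 6.64% were. Cxcl2 was at 816 in the pool labelled wild-type and 1649 in the pool labelled Saa3-/- (2.02-fold), Cxcl1 at 231 and 489.5 (2.12-fold), and Ccl4 at 648 and 1243.5 (1.92-fold). Of the 724 Ccl4 molecules in the pool labelled Saa3-/-, 5 of 73 cells held 53.6%. Of the 974 in the pool labelled wild-type, 5 of 125 cells held 27.4%. When the 5 highest cells were left out of each pool, its log2 ratio went from 0.94 to 0.35, within the limit, while those of Cxcl1 and Cxcl2 were 1.24 and 1.10. Ccl7 was 1.57-fold lower (377 and 240.5). With the sub-gate limit at 20 its log2 ratio was -0.54, within 1.5-fold, and Ccl3 passed the limit (1.06). Cxcl1 was then at 0.88, and at 0.51, within 1.5-fold, without its 5 highest cells of each pool.

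Ccl8 in resident-type cells was at 1019 and 362 (log2 ratio -1.49), and -3.08 when the 5 highest cells were left out of each pool. Those 5 cells held 53.9% of its molecules among 125 cells in the pool labelled wild-type and 84.4% among 73 in the other. The pools were thus not trimmed alike. The median resident-type cell held 1 molecule of Ccl8 in the pool labelled wild-type and 0 in the other. Immediate early and heat shock genes, which also respond to tissue digestion, were at 7960 and 9211 CPM in resident-type cells, and at 7724 and 7504 in lipid-laden cells. The median depth of the resident-type cells was 9559 and 6556 molecules. The part of these in the higher Cxcl1, Cxcl2 and Ccl4 was not tested.

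Within the lipid-laden cells, Ccl2, Ccl7 and Cxcl2 were lower and Ccl8 was higher in the pool labelled Saa3-/-. These are 3 of 10 members called lower, where 11.7% of 4375 genes were, and 1 called higher, where 4.96% were. Cxcl2 was at 1427 and 687 (2.08-fold lower) and Ccl2 at 364 and 168 (2.17-fold lower). For Ccl2, 5 cells held 66.4% of the 283 molecules in the pool labelled wild-type and 75.0% of the 88 in the other. Without them its log2 ratio was -1.43. For Cxcl2, 5 cells held 54.6% of the molecules in the pool labelled wild-type and 55.3% in the other, and without them the log2 ratio was -1.07. The higher Ccl8 rested on 21 and 37 molecules, 22 of the 37 in 1 cell. Its log2 ratio was 1.39 at the limit of 10, 0.73 at the limit of 5 and 0.76 when 5 cells were left out of each pool at the limit of 10. With both changes it was 0.086. Ccl7 was at 185 and 114, with 31 of its 60 molecules in 1 cell of the pool labelled Saa3-/-, and at the limit of 20 its log2 ratio was -0.26, within 1.5-fold. At that limit Cxcl1 was lower too (-1.92, against -0.28 at 10) and Ccl4 higher (1.15, against 0.07).

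**Figure D3:**
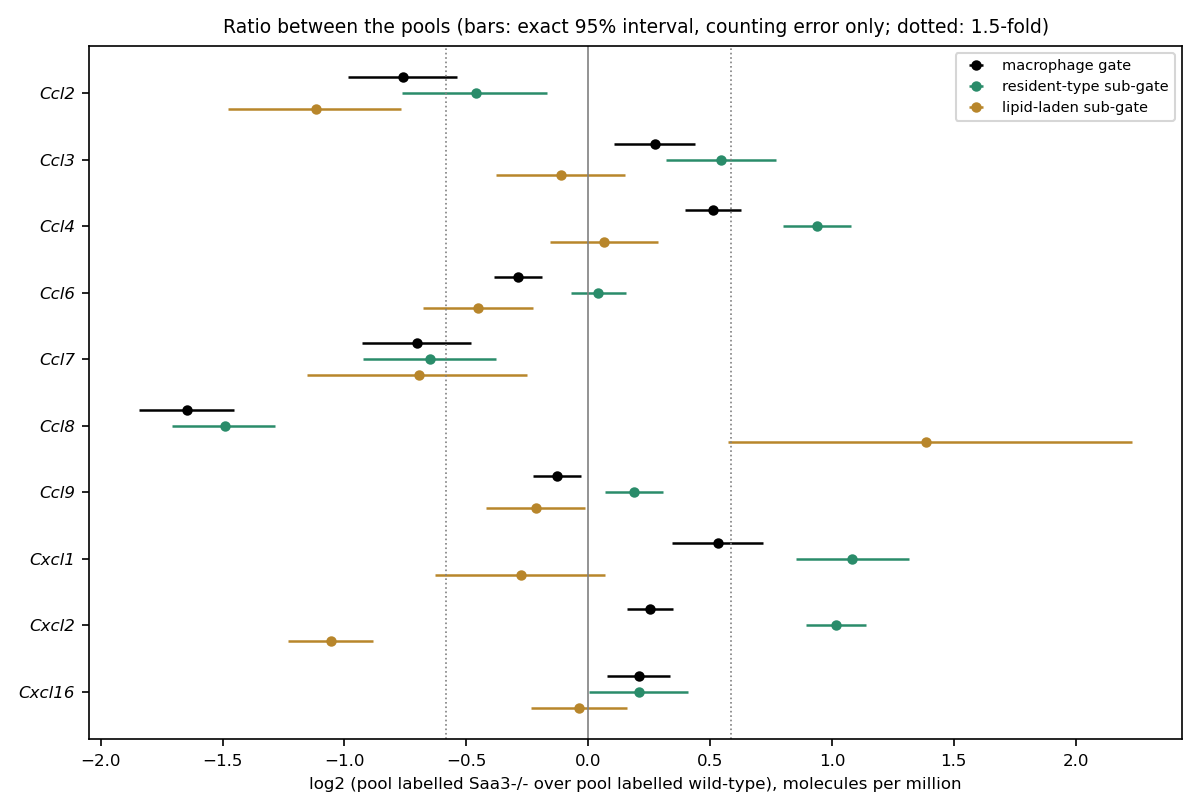
Log2 ratio of each chemokine's level, pool labelled Saa3-/- over pool labelled wild-type, in the macrophage gate and in its resident-type and lipid-laden sub-gates; bars are exact 95% intervals for counting error and dotted lines mark 1.5-fold. Ccl8 and Cxcl2 lie on opposite sides of 0 in the 2 sub-gates, at -1.49 and 1.39 for Ccl8 and at 1.01 and -1.05 for Cxcl2.

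Outside macrophages the pools were compared by level alone. In the fibroblast-marker gate Cxcl1 was 2.21-fold lower in the pool labelled Saa3-/- (log2 ratio -1.15 [-1.38, -0.92]), where 1 cell of the other pool held 185 of its 586 molecules. Without cells with second-lineage markers the levels were 401 [346, 463] and 293 [246, 347], whose intervals touch. Ccl7 was 1.98-fold higher there, on 74 and 117 molecules, but lower without those cells, at 91.3 [66.1, 123] and 29.8 [16.3, 49.9]. Ccl6 was 5.79-fold lower in the same gate, at 212 and 36.7, and at 70.1 and 38.3 without cells with second-lineage markers. In the monocyte gate (31 and 29 cells) the summed level was 4415 and 2324. Ccl6, Ccl9 and Cxcl2 were 2.08-fold, 1.84-fold and 2.23-fold lower, and Ccl4 was 1.90-fold higher on 24 and 28 molecules. Larger differences rested on few molecules. Ccl2 was 5.27-fold lower [2.09, 17.1] on 43 and 5 molecules, Cxcl1 7.36-fold lower [1.09, 315] on 12 and 1, and Ccl7 had 12 and 0. The 2 cells with 127 and 100 of the 421 Ccl6 molecules of the pool labelled wild-type are in this gate. In that pool 1 cell held 88 of the 261 Ccl9 molecules, and 2 cells held 53 and 32 of the 153 Cxcl2 molecules. For Ccl4, 1 cell held 12 of the 24 molecules there, and 1 cell held 16 of the 28 in the pool labelled Saa3-/-. Immediate early and heat shock genes were at 7274 and 10210 CPM there, and their part in these differences was not tested. In the dendritic gate the sums were 1492 and 1487.5, and among Cxcl16, Ccl9, Cxcl2 and Ccl6 the largest difference was 1.13-fold (Cxcl16). Cxcl1 was 2.42-fold higher there, on 15 and 33 molecules. In the pool labelled wild-type 1 cell held 12 of the 15, and in the other 2 cells held 15 and 13 of the 33. Ccl4 was 1.50-fold higher in the dendritic gate, on 36 and 49 molecules (log2 ratio 0.59 [-0.07, 1.25]). Ccl2, Ccl3, Ccl7 and Ccl8 had at most 12 molecules there in either pool.

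How the molecules were spread over cells differed between the genes. Ccl9 and Cxcl16 were carried by most macrophages. It took 39 of 206 cells to reach 50% of the Ccl9 molecules in the pool labelled wild-type and 16 of 145 in the pool labelled Saa3-/-. For Cxcl16 it took 36 and 28 cells. Ccl8 was carried by few. There 5 and 3 cells reached 50%, and its highest cell held 243 of 1574 molecules and 58 of 251. Cxcl1 needed 7 cells in each pool.

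Ccl2, Ccl3, Ccl4, Ccl6, Ccl7 and Cxcl2 lay between, with 8 to 25 cells for all but Ccl7 in the pool labelled Saa3-/-, which needed 7. The median macrophage held 8 molecules of Ccl9, 5.5 of Ccl6 and 4 of Cxcl16 in the pool labelled wild-type, and 4, 2 and 4 in the pool labelled Saa3-/-. These are counts not set to equal depth, and the median macrophage had 9810 and 6978 molecules in all. By level, Ccl9 was 1.09-fold and Ccl6 1.22-fold lower in the pool labelled Saa3-/-, and Cxcl16 was 1.15-fold higher. The median was 0 for Ccl8 and Cxcl1 in both pools.

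**Figure D4:**
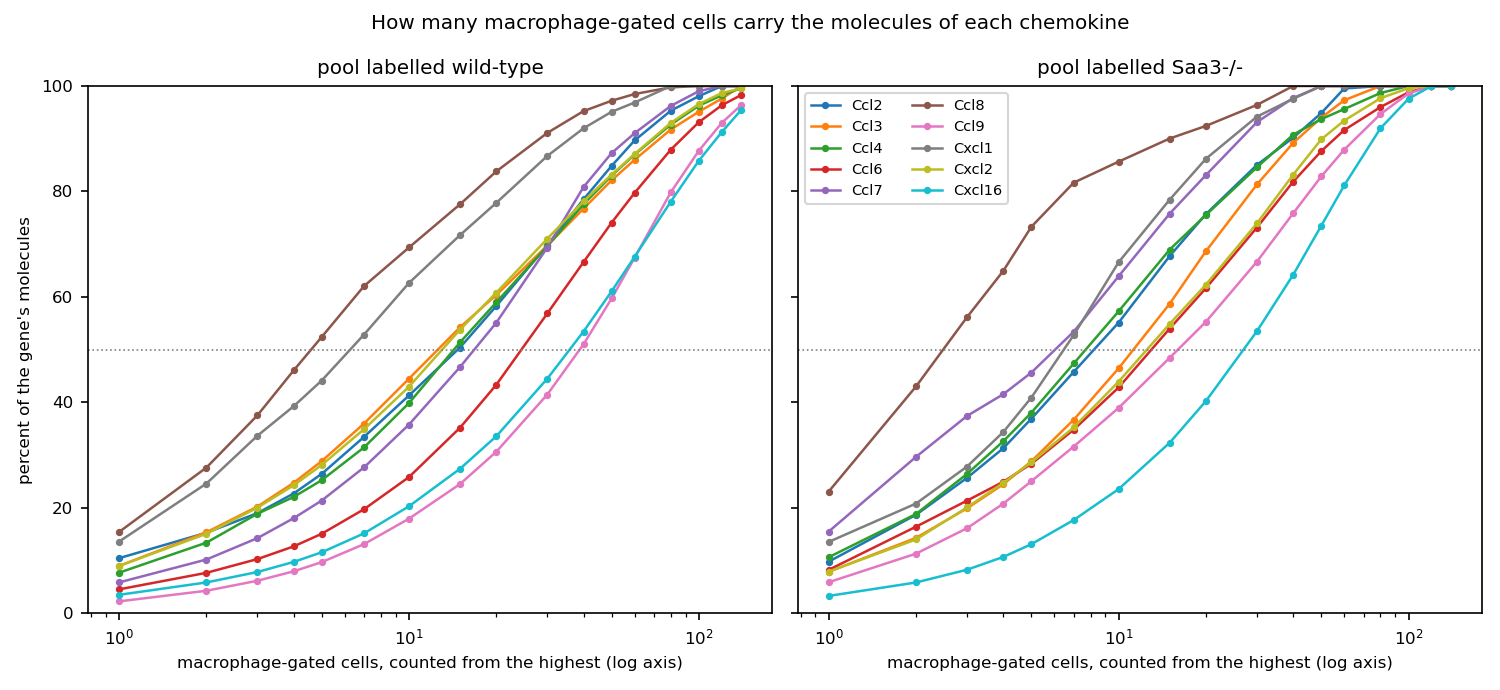
Percent of each chemokine's molecules (y axis) held by the macrophage-gated cells counted from the highest (x axis, log), 1 panel per pool; the dotted line marks 50%. The Ccl8 curve rises first, reaching 52.4% and 73.3% with 5 cells, and Cxcl16 and Ccl9 rise last in the pool labelled wild-type.

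From cell to cell, the 4 closest pairs over both pools were neighbours in a genomic cluster. Over the 351 macrophage-gated cells, Pearson's r of log(1 + molecules per 10000) was 0.64 for Ccl6 with Ccl9, 0.56 for Ccl2 with Ccl7, 0.51 for Cxcl1 with Cxcl2 and 0.50 for Ccl3 with Ccl4. These were the 4 highest of 45 pairs. Cells of 1 pool share a library, and the r is a description. The 4 pairs gave 0.53, 0.43, 0.44 and 0.44 after thinning to 2000 molecules (344 cells). Within the pools they gave 0.63 and 0.65 (Ccl6 with Ccl9), 0.54 and 0.56 (Ccl2 with Ccl7), 0.42 and 0.59 (Cxcl1 with Cxcl2) and 0.49 and 0.52 (Ccl3 with Ccl4), the pool labelled wild-type first. Ccl4 with Cxcl2, genes of 2 chromosomes, gave 0.46 over both pools. After thinning it gave 0.43, just above Ccl2 with Ccl7, and in the pool labelled Saa3-/- it gave 0.53, above Ccl3 with Ccl4, so the order of the pairs was not the same there.

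Ccl8 lies in the same cluster as Ccl2 and Ccl7 but not directly beside them, with Ccl7 ending at 82047525 and Ccl8 starting at 82115185. It went more with Ccl6 (r = 0.41) than with Ccl7 (0.23) or Ccl2 (0.15). The lowest r of the 45 pairs were those of Cxcl16, -0.38 with Ccl6 and -0.30 with Ccl9, with the same sign in each pool and after thinning. The r of single members with the score of immediate early and heat shock genes lay between -0.15 (Cxcl16) and 0.31 (Ccl6), over both pools taken one at a time.

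**Figure D5:**
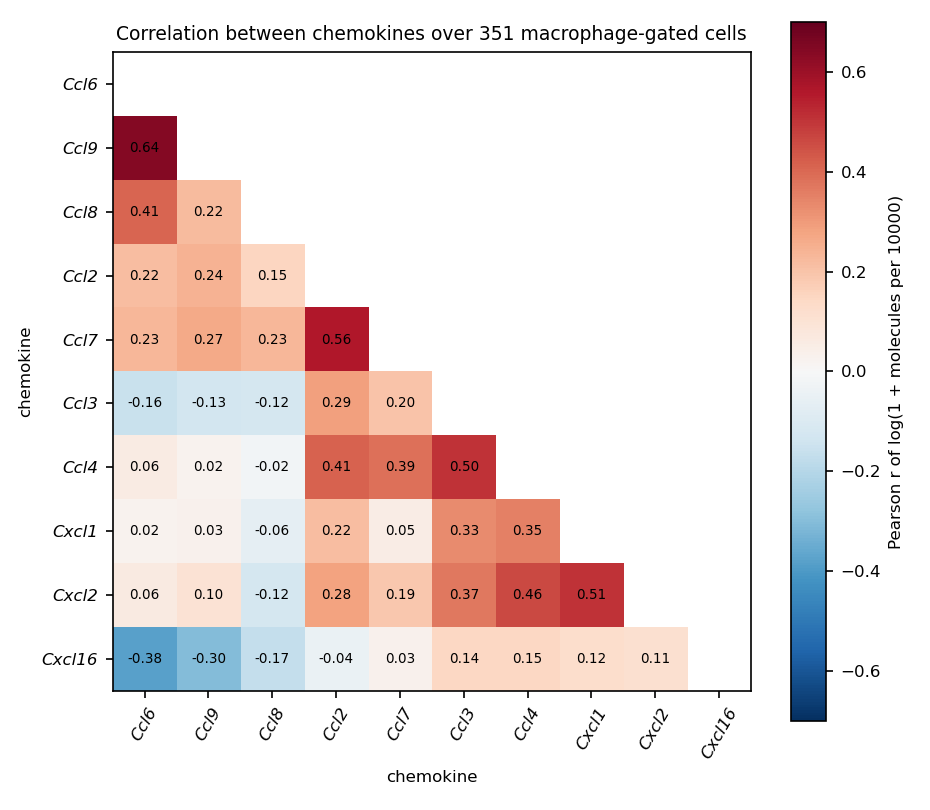
Pearson's r between each pair of chemokines over 351 macrophage-gated cells, as log(1 + molecules per 10000). The darkest red squares join Ccl6 with Ccl9 (0.64) and Ccl2 with Ccl7 (0.56), and the deepest blue squares join Cxcl16 with Ccl6 and Ccl9, at -0.38 and -0.30.

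The genes most like each member were sought over 16 units (the 8 classes in each pool) among 8173 genes with at least 200 molecules, by Pearson's r of log2(level + 10). The units share libraries, and r is a description. Ccl6 and Ccl9 were most like each other (0.99), with Lyz2 (0.97 each), the lysozyme gene of myeloid cells, in both lists, Fcgr3 (0.96) in that of Ccl6 and Apobec1 (0.97) in that of Ccl9. Ccl8 was most like Folr2 (0.95), Fcna (0.93) and Cd209f (0.92). The B gate of the pool labelled wild-type is 1 of the units, and there 1 of 50 cells held 155 of the 194 Ccl8 molecules. The part of this cell in the r was not tested. Folr2, a folate receptor gene, is also one of the resident-type markers used above.

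Cxcl2 was most like Cd14 (0.97), the co-receptor for bacterial lipopolysaccharide, then Ftl1-ps1 and Alox5 (0.97 and 0.96). Ccl3 was most like Ninj1 (0.98), Lair1 (0.95) and Csf1r (0.95), and Csf1r is one of the macrophage markers. Ccl4 went with Trf (0.93), Alox5 (0.93) and Trem2 (0.91), Cxcl16 with Gatm (0.96), AA467197 (0.95) and Rab7b (0.92). Ccl2 (Abca9, 0.90; Adam9, 0.87; Pltp, 0.86), Ccl7 (Ptgs1 and Ang among its 3, 0.91 and 0.90) and Cxcl1 (Abhd4, Pmp22 and Tspan4, 0.90 to 0.89) had looser matches.

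Receptors for the neutrophil- and T-cell-drawing ligands were scarce in macrophages. Cxcr2, the receptor for CXCL1 and CXCL2, was at 953 and 954 CPM in the few neutrophil-gated cells and at 1.60 and 1.61 in the macrophage gate. Cxcr6, the receptor for CXCL16, was at 253 and 119 in the T gate and at 5.21 and 5.63 in the macrophage gate. Ccr2, the receptor for CCL2 and CCL7, was at 1048 and 422 in the monocyte gate and at 295 and 415 in the macrophage gate. Ccr1 was at 409 and 588 in neutrophil-gated cells and at 14.0 and 37.0 in macrophages.

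Of 7 receptor genes with at least 50 molecules in the macrophage gate, 2 were called higher in the pool labelled Saa3-/-, Ccr1 (2.64-fold, on 35 and 46 molecules) and Ccr7 (1.79-fold, on 46 and 41), and 0 were called lower. Over all 7653 genes with as many molecules, 5.42% were called higher and 4.9% lower. The list's median log2 ratio was 0.06.

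Of 11 further chemokine genes with enough molecules in the macrophage gate, 4 were called lower and 2 higher in the pool labelled Saa3-/-, with a median log2 ratio of -0.46. Of all 7653 genes with as many molecules, 4.9% were called lower and 5.42% higher. This list, like the members and the other lists, was chosen with earlier results of these data known, so its calls are a description. Cxcl13, which draws B cells, was at 735 and 47.4 (15.5-fold lower). The interferon-induced ligands of CXCR3 were also lower: Cxcl9 had 103 and 3 molecules (a ratio of 17.1 on the levels, log2 -4.10 [-6.40, -2.51]) and Cxcl10 was 1.59-fold lower. Ccl12, a CCR2 ligand in the same cluster as Ccl2 and Ccl7, was 1.72-fold lower (208 and 121). Ccl24, an eosinophil-drawing ligand, was 3.73-fold higher (19.6 and 73.2) and Cxcl3, a CXCR2 ligand, 1.89-fold higher (34 and 32 molecules). Pf4 was at 549 and 439.9 and Ccl5 at 117 and 132, both within 1.5-fold.

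Of 13 inflammatory cytokine and sensor genes, 1 was called higher (Il1a, 1.89-fold, on 34 and 32 molecules) and 0 lower, with Tnf at 154 and 168 and Il1b at 208 and 236 CPM. Of 12 genes of NF-kB subunits and feedback, 1 was called lower (Nfkbie, 1.50-fold) and 0 higher, with a median of -0.21. The CXCL16 proteases Adam10 (131 and 167) and Adam17 (212 and 153) were within 1.5-fold. Of 16 immediate early and heat shock genes 0 were called in either direction, and their summed level was 7970 and 8213 CPM. The background for all these lists was 4.9% of 7653 genes called lower and 5.42% higher.

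Some molecules could be credited to more than 1 gene. Of the annotated stretches of 50 bases of Cxcl2, 5.84% also occur in Cxcl3, and of those of Ccl9, 1.97% occur elsewhere. No other member had any. Ccl2, Ccl6 and Cxcl16 overlap a gene on the opposite strand (Gm17268, E230016K23Rik and Zmynd15). How strand was used in counting is not given in the sources used here, so their molecules cannot be told apart from those of the partner.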

How the data were processed

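The deposited tables hold whole counts of molecules per gene and cell, 1 table per sample tag. They were made with the BD Rhapsody pipeline 1.11.1 on GRCm38 with GENCODE M19, per the file headers, counting intronic reads and calling cells with the refined method. Per the submitters' processing notes, R 4.3.1 and Seurat 4.3.0 were used. Only the tables' names tie a tag to a genotype. A further table of tag calls, from a later pipeline run per the file headers, lists 889 and 854 cells of these tags, 647 undetermined cells and 11 multiplets.

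Here, with Python 3.11.15, scanpy 1.11.5 and scipy 1.17.1, 56 and 31 cells were removed by the limits of 200 genes and 25% mitochondrial molecules. A cell's class score was the mean z-score of log(1 + molecules per 10000) over its markers. No doublet caller was run. Cells whose second lineage scored at least 0.5 with 3 markers found (210 cells) were left out as an alternative. Counts were summed per gate and pool and divided by the total of the same cells. Ratios have exact conditional binomial intervals at 95%. In the ratios over all genes a count under 3 molecules was set to 3. The members' ratios by gate had no such limit, and none is given where a pool had 0 molecules. Positions are from GENCODE M21. The members and gene lists were chosen with earlier results of these data known. Named genes are the 10 members in every gate, Saa3, for each list up to 3 genes per direction farthest apart with at least 50 molecules, the most abundant chemokines and receptors, and the 3 genes most like each member. Receptors outside this rule were chosen as those of the members' ligands. Alternatives were all deposited cells, a filter at 500 genes and 15%, Leiden clusters at resolution 1, equal cell weights, the same mean depth, median-of-ratios scaling, other limits and the removal of high cells. The functions were tested on simulated data. Some genes and an agent given to both groups are not reported here.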

Additional observations from a re-analysis of the deposited data

Results flagged for a closer look

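Ccl8 and Cxcl2 went in opposite directions in the 2 macrophage sub-gates. For Ccl8 the log2 ratio, pool labelled Saa3-/- over pool labelled wild-type, was -1.49 in resident-type and 1.39 in lipid-laden cells. For Cxcl2 it was 1.01 in resident-type and -1.05 in lipid-laden cells. The difference between the sub-gates was not tested, since there is 1 pool per genotype. The lipid-laden value of Ccl8 rests on 21 and 37 molecules. The opposite directions of both genes were also seen with the sub-gate limit at 5 (Ccl8 -1.50 and 0.73; Cxcl2 0.99 and -0.88) and at 20 (Ccl8 -1.34 and 1.91; Cxcl2 0.83 and -1.93). Of the 37 molecules 22 are in 1 cell. With the limit at 5 and the 5 highest cells left out of each pool, the lipid-laden value of Ccl8 was 0.086.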

How the results depend on the processing

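No paired analysis was possible because the aortic sample has 1 pool per genotype, the shared replicate numbers belong to culture samples that were not analysed here, and no test was made. In the macrophage gate 0 members were called higher and 3 lower. Leiden clusters gave 3 higher and 1 lower, equal cell weights 2 and 1, an equal mix of sub-gates (added after seeing the data) 2 and 2, and the 2-fold limit 0 and 1. Without the 5 cells of each pool highest in each member (also added) the counts were 1 and 3. The summed log2 ratio of -0.06 became 0.13 in Leiden clusters, -0.10 without cells with second-lineage markers, 0.027 with equal cell weights, -0.14 without the 5 cells of each pool highest in the members and 0.049 with an equal mix of sub-gates. The cause was not tested. All deposited cells, the stricter cell filter, thinning to the same mean depth, median-of-ratios scaling, which shifted all ratios by -0.03, and the other molecule limits left the counts at 0 and 3. The 8 members highest in the macrophage gate among the compared gates, the 10 shares above both lymphocyte gates and the 5 and 1 genes split by sub-gate kept their counts in each alternative run. No called member changed sign. Median depth was lower in the pool labelled Saa3-/- (6978 against 9810 molecules per macrophage).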
